A study of Mus musculus with 2 samples.

Results

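Kappa light-chain V segments are the germline gene pieces that encode most of the variable part of kappa antibody chains, and they were followed here cell by cell in plasma cells and B cells of the mouse omentum. The rows were taken by name, as every listed gene whose symbol begins with Igkv and a digit. This gave 96 of the 19960 listed genes. A further 16 kappa V segments, Igkv14-126 among them, carry only an Ensembl identifier in the gene list and were recognised through the GENCODE annotation, so the segment of a cell was read from 112 rows (96 annotated as functional and 16 as pseudogenes, in 20 families) out of the 160 kappa V genes annotated. The omentum is a fold of peritoneal fat whose lymphoid clusters, the milky spots, hold B1 cells. The data are 2 droplet-based single-cell RNA libraries, whose transcripts were counted by unique molecular identifiers (UMIs). A first library came from wild-type (WT) omenta and the other from *Postn*-DTR omenta, which carry the diphtheria toxin receptor in the first coding exon of a single *Postn* allele, so that cells expressing *Postn* become sensitive to diphtheria toxin (DT). Both groups received DT, both were collected 5 days later, and each library pooled 3 mice, so that a clone of a single mouse and a clone shared between mice cannot be told apart. There is 1 library per group. No test between groups was therefore possible, and all intervals cover counting error only. They treat cells as independent draws, which cells of a clone are not. Intervals that exclude 1 or do not overlap thus describe these 2 libraries only.

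A B cell that makes a kappa chain joins 1 V segment to 1 J segment on a kappa allele, and cells of a clone inherit that join. The join fixes the light-chain partner of the heavy chain, so the same V segment in many cells with the same heavy-chain V segment marks either a clone or repeated selection of that pair. B1 cells, which are enriched in body cavities and in the omentum, are known for recurrent pairs: Ighv11-2 with Igkv14-126 and Ighv12-3 with Igkv4-91, both binding phosphatidylcholine, and Ighv7-1 with Igkv7-33, which binds phosphorylcholine.

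The 3′ ends of the germline V segments on which the results turn are shown first, because this end enters the antigen-binding loop CDR3. Each line holds the last 60 bases of the GENCODE transcript (GRCm38), 5′ to 3′, with the bases after the codon of the conserved cysteine, where CDR3 begins, in capitals. The first pair led the plasma cells of both libraries. The next 4 had recurrent heavy-chain partners in plasma cells, Igkv12-98 and the last 3 appeared beside another kappa V segment in the same cells, and Igkv10-94 is set next to its near copy Igkv10-95.
Igkv14-126: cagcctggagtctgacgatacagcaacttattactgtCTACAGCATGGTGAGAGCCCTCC
Igkv8-16: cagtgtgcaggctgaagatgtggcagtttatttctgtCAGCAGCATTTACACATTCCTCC
Igkv4-91: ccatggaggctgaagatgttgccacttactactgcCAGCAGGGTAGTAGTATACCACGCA
Igkv12-89: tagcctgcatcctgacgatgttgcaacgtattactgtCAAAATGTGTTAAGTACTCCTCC
Igkv9-120: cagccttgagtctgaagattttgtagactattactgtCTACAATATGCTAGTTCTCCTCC
Igkv15-103: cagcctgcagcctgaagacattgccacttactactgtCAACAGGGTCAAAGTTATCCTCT
Igkv12-98: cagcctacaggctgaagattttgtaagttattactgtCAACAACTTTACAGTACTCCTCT
Igkv10-94: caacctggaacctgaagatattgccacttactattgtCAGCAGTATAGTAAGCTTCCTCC
Igkv10-95: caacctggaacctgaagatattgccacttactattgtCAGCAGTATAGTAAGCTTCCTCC
Igkv3-10: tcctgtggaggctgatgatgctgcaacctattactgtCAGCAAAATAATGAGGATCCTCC
Igkv4-86: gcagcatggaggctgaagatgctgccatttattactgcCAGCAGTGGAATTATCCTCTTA

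All of these lie on mouse chromosome 6. Igkv8-16 (chr6:70386672-70387252, minus strand) lies 335 kb upstream of Igkj1, near the J segments, and Igkv14-126 (chr6:67896172-67896642, plus strand) lies 2826 kb upstream, in the distal part of the locus. The printed ends of Igkv10-94 and Igkv10-95 are the same letter for letter. Their whole transcripts were 97.1% identical with a longest shared run of 82 bases, Igkv9-120 was 95.2% identical to Igkv9-124, and Igkv8-16 had no near copy among the 112 (79.2% to Igkv8-19). Reads from near copies could in principle be split between rows. In the 25 WT plasma cells with dominant Igkv10-94, however, the median count of Igkv10-95 was 0 UMIs, and in the 63 *Postn*-DTR plasma cells with dominant Igkv9-120 the Igkv9-124 row held 0.0696% of the UMIs of the pair.

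The cell filter left 8654 WT and 5727 *Postn*-DTR cells with a median of 5635 and 8472 UMIs, and 65 barcode sequences occurred in both libraries. Plasma cells were cells with a Jchain value of at least 3.93 (natural log scale) and any Xbp1, 596 in WT and 2050 in *Postn*-DTR. B cells were cells with any Ms4a1 and less Jchain, 2916 and 1039. The marker lists include the genes of the gates, so part of their contrast was set by the gating. The 10 plasma cell markers summed to 521 and 375 UMIs per 10000 in the plasma gate against 12.0 and 26.3 in the B gate. Jchain alone made up 441 and 264 of the plasma gate sums. Mzb1 (31.8 and 49.0 against 5.92 and 13.0) and every other plasma marker outside the gate rule were also higher there. The sum of 7 B cell markers, Ms4a1 among them, was 80.2 and 73.8 in the B gate and about 11 in the plasma gate of either library. Cd79a (36.9 and 36.9 against 6.44 and 7.95) and every other B marker outside the rule were higher in the B gate. T cell markers stayed at or below 1.02 in all 4 sets. An Ms4a1 UMI was present in 410 WT and 898 *Postn*-DTR plasma cells. Scrublet scores above 0.3 marked 1.02% and 1.20% of the cells, which were kept and left out only in an alternative.

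Kappa V transcripts made up on average 31.7% of the UMIs of a WT plasma cell and 25.6% in *Postn*-DTR. The median plasma cell held 9275 kappa V UMIs in WT and 5833 in *Postn*-DTR, at a median depth of 29690 and 24151 UMIs. The median B cell held 45 and 41 kappa V UMIs, at 6072 and 5748 UMIs. A segment was called dominant when it had at least 3 UMIs and at least 50% of the kappa V UMIs of the cell. It was called in 584 of 596 WT plasma cells (97.99%, exact Clopper-Pearson 95% interval 96.5 to 98.96) and in 2022 of 2050 *Postn*-DTR plasma cells (98.6%, 98.03 to 99.1). In B cells it was called in 2614 of 2916 (89.6%, 88.5 to 90.7) and 908 of 1039 (87.4%, 85.2 to 89.4).

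T cells, which make no kappa chain, give the background from free RNA. At a median depth of 4790 and 4438 UMIs the median T cell held 2 kappa V UMIs in WT and 6 in *Postn*-DTR, and the call was met in 22.5% of 3008 and 47.7% of 478 T cells. These calls were mostly the abundant plasma cell segments: Igkv14-126 in 470 and Igkv8-16 in 159 of the 677 WT calls, and 130 and 76 of the 228 *Postn*-DTR calls. With at least 10 UMIs required, the call fell to 1.93% and 7.74% of T cells and to 82.9% and 78.8% of B cells. Plasma cell calls stand far above this level, whereas shares of Igkv14-126 and Igkv8-16 in B cells hold some background, more of it in *Postn*-DTR (a mean of 1.58 and 3.21 Igkv14-126 and 0.548 and 2.01 Igkv8-16 UMIs per T cell). Their main B cell shares are given below also after these means were subtracted, an alternative chosen after seeing the data.

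Igkv14-126 and Igkv8-16 together made up most plasma cells in both libraries, and of the pair only Igkv8-16 had a different share in *Postn*-DTR by its counting interval. Igkv14-126 was dominant in 211 of 584 called WT plasma cells (36.1%, 32.2 to 40.2) and in 723 of 2022 from *Postn*-DTR (35.8%, 33.7 to 37.9). The ratio of these shares was 0.990 (approximate Katz log 95% interval 0.875 to 1.12). Igkv8-16 was dominant in 142 WT plasma cells (24.3%, 20.9 to 28.0) and 898 from *Postn*-DTR (44.4%, 42.2 to 46.6), a ratio of 1.83 (1.57 to 2.12). Counted by cells, the leading segment thus differed between the libraries, Igkv14-126 in WT and Igkv8-16 in *Postn*-DTR. Counted by UMIs, Igkv14-126 led in both, with 43.0% and 51.9% of the kappa V UMIs of plasma cells against 15.8% and 20.3% for Igkv8-16. This ranking does not allow for unlike UMI yields of the rows. Per UMI of the kappa constant region Igkc, Igkv8-16 cells held a median of 3.65 and 2.71 UMIs of their segment and Igkv14-126 cells 11.8 and 13.3. The part of such yields in the ranking was not tested. Without cycling cells, however, Igkv14-126 was dominant in 463 and Igkv8-16 in 459 of 1140 *Postn*-DTR plasma cells. Across 7 other settings of gates, depth and calls over the same rows the Igkv8-16 ratio lay between 1.68 and 1.83 and the Igkv14-126 ratio between 0.986 and 1.04.

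**Figure D1:**
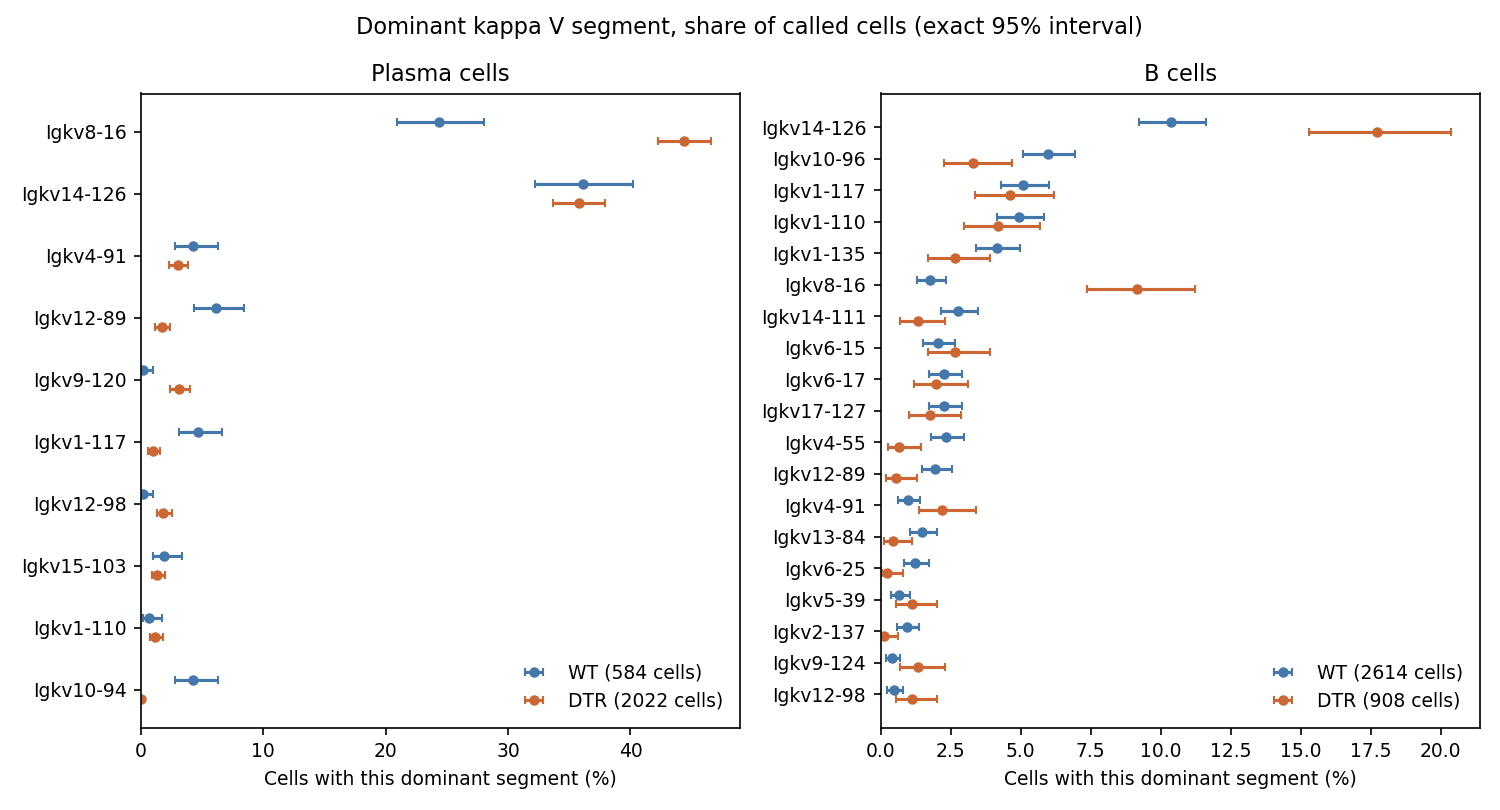
Share of called cells (x axis, percent) with each named dominant kappa V segment in plasma cells (left) and B cells (right) of the WT (blue) and *Postn*-DTR (orange) library; points are shares and bars exact 95% intervals. Igkv8-16 lies at 24.3% and 44.4% of plasma cells, whereas Igkv14-126 lies at 36.1% and 35.8%.

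Among the less frequent plasma cell segments, several were held almost wholly by a single library. Igkv9-120 was dominant in 1 WT and 63 *Postn*-DTR plasma cells (0.171% and 3.12%, ratio 18.2, 2.53 to 131), and Igkv12-98 in 1 and 37 (0.171% and 1.83%, ratio 10.7, 1.47 to 77.7). Without cycling cells these counts were 1 and 28 (ratio 8.30, 1.13 to 60.8) and 0 and 19, and when 80% of the kappa V UMIs were asked of a dominant segment the interval of Igkv12-98 included 1 (ratio 7.07, 0.961 to 52.0). Igkv10-94 was dominant in 25 WT plasma cells (4.28%) and in 0 of 2022 from *Postn*-DTR, which allows a share of up to 0.148%. Its WT share was 28.9 times this limit. For Igkv17-127, in 12 WT cells and 0 from *Postn*-DTR, the WT share was 13.8 times the limit. Neither figure allows for the counting error of the WT share. Igkv12-89 was at 6.16% (36 cells) in WT and 1.68% in *Postn*-DTR (34 cells, ratio 0.273, 0.172 to 0.432) and Igkv1-117 at 4.62% (27 cells) and 0.989% (20 cells, ratio 0.214, 0.121 to 0.379, and 0.350 without cycling cells). For the phosphatidylcholine segment Igkv4-91 the counts were 25 (4.28%) and 61 (3.02%), with a ratio of 0.705 and an interval that includes 1 (0.447 to 1.11). The same held for Igkv15-103 (11 and 27 cells, ratio 0.709, 0.354 to 1.42) and Igkv1-110 (4 and 24 cells, ratio 1.73, 0.604 to 4.97). Among the 231 and 401 cells outside the leading pair, the parts of Igkv4-91 and Igkv15-103 were larger in *Postn*-DTR. Those of Igkv12-89 and Igkv1-117 were smaller there too. In all 66 segments were dominant in some plasma cell, of which 35 occurred in both libraries, 14 only among the WT cells and 17 only among the *Postn*-DTR cells, which were more numerous.

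In B cells the same leading pair of segments took a larger share in *Postn*-DTR, on a much broader repertoire. Igkv14-126 was dominant in 271 of 2614 WT B cells (10.4%, 9.22 to 11.6) and 161 of 908 from *Postn*-DTR (17.7%, 15.3 to 20.4), a ratio of 1.71 (1.43 to 2.05). With the T cell means subtracted the shares were 9.24% and 15.9% and the ratio 1.72. Igkv8-16 was dominant in 46 (1.76%, 1.29 to 2.34) and 83 (9.14%, 7.35 to 11.2), a ratio of 5.19 (3.65 to 7.39), and of 4.64 after the subtraction. At 80% dominance 24 and 68 such cells were called and the ratio was 10.6 (6.74 to 16.7). The 83 *Postn*-DTR cells were unlike the average B cell. They held a median of 1284 UMIs of the segment at a depth of 21110 UMIs, against 59.5 at 14272 in the 46 WT cells. A Mki67 or Top2a UMI was found in 45 of the 83 and in 24 of the 46. When B cells were limited to a Jchain level below 10 UMIs per 10000, also chosen after seeing the data, 33 WT and 28 *Postn*-DTR cells with Igkv8-16 remained and the ratio was 2.73 (1.66 to 4.50), while that of Igkv14-126 was 1.62.

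Beyond the leading pair, B cell segments lay on both sides of a ratio of 1. Together these segments made up 2297 of 2614 called B cells in WT and 664 of 908 in *Postn*-DTR. Their ratios compare shares of all called cells, so the larger share of the leading pair in *Postn*-DTR lowers them as a set. Igkv10-96 was second in WT with 156 cells, and its share was 5.97% in WT and 3.30% in *Postn*-DTR (ratio 0.554, 0.377 to 0.812). Igkv1-135 (4.13% and 2.64%, ratio 0.640, 0.414 to 0.989) and Igkv14-111 (2.75% and 1.32%, ratio 0.480, 0.262 to 0.880) were also lower by their intervals, but that of Igkv1-135 included 1 without cycling cells (ratio 0.662), without Scrublet doublets (0.650) and with Jchain below 10 (0.730). The intervals of Igkv1-117 (5.09% and 4.63%), Igkv1-110 (4.94% and 4.19%), Igkv6-15 (2.03% and 2.64%), Igkv6-17 (2.26% and 1.98%) and Igkv17-127 (2.26% and 1.76%) included 1. By the rule for extremes among the 50 segments in at least 20 B cells, the highest ratios after Igkv8-16 belonged to Igkv9-124 (10 and 12 cells, 3.45), Igkv12-98 (12 and 10 cells, 2.40), Igkv4-91 (25 and 20 cells, 2.30) and Igkv5-39 (17 and 10 cells, 1.69), the interval of the last including 1. At 80% dominance the ratio of Igkv5-39 turned to 0.288 (13 and 1 cells), and that of Igkv12-98 had an interval including 1 there (2.39, 0.929 to 6.12) and after thinning to 1000 UMIs (1.94). The lowest belonged to Igkv2-137 (24 and 1 cells, 0.120), Igkv6-25 (32 and 2 cells, 0.180), Igkv12-89 (51 and 5 cells, 0.282), Igkv4-55 (61 and 6 cells, 0.283) and Igkv13-84 (38 and 4 cells, 0.303). Over the alternatives the ratio of Igkv13-84 ran from 0.113 to 0.593, and its interval included 1 at 80% dominance, after thinning and with background subtracted. Without cycling cells the intervals of Igkv4-55 (0.499, 0.210 to 1.18) and Igkv2-137 (0.139, 0.0187 to 1.03) included 1. Igkv12-89 was thus lower in *Postn*-DTR in both plasma cells and B cells, by similar ratios.

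B cells divide by Fcer2a (CD23), a marker of follicular B2 cells, and the segments divided with it. Among WT B cells Igkv14-126 was dominant in 2.83% of the 1450 called cells with an Fcer2a UMI and in 19.8% of the 1164 without. Among the *Postn*-DTR cells these shares were 6.42% (187 cells) and 20.7% (721 cells). Igkv10-96 lay the other way, at 7.86% with and 3.61% without Fcer2a in WT, and at 4.81% and 2.91% in *Postn*-DTR. Within the cells without Fcer2a, the share of Igkv14-126 had overlapping intervals in the libraries (17.5 to 22.2% and 17.8 to 23.8%), whereas cells with Fcer2a made up 1450 of 2614 called B cells in WT and 187 of 908 in *Postn*-DTR. Igkv8-16 differed within the cells without Fcer2a, at 2.84% (33 of 1164) and 11.2% (81 of 721, 9.02 to 13.8). With the T cell means subtracted, Igkv14-126 was at 2.14% with and 18.2% without Fcer2a in WT, and at 4.69% (2.17 to 8.71) and 18.9% in *Postn*-DTR, and Igkv8-16 was at 3.07% and 10.6% of the cells without Fcer2a. These cells were deeper than those with Fcer2a, with a median of 8102 against 5079 UMIs in WT and 6373 against 4167 in *Postn*-DTR.

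The mean Fcer2a level of Igkv14-126 B cells, which restates this split, was 0.38 (WT) and 0.18 (*Postn*-DTR) UMIs per 10000. In B cells with neither leading segment it was 3.33 and 1.23. Other genes, compared between the same sets of cells, ran with the split. The level of Ighd (the IgD constant region) was 1.01 and 1.33 in Igkv14-126 B cells against 3.87 and 3.40. Bhlhe41, a transcription factor of B1 cells, was at 0.79 and 0.55 against 0.25 and 0.20, and Zbtb32 at 0.95 and 0.42 against 0.38 and 0.28. The tetraspanin Cd9 was at 1.61 and 1.11 against 0.43 and 0.41, and Cd5 at 0.27 and 0.14 against 0.12 and 0.04. Cells with Igkv14-126 were deeper (10291 and 7636 UMIs) than cells with other segments (5568 and 5167), and the part of depth in these differences was not tested.

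Diversity was lower in *Postn*-DTR in both classes. The effective number of segments, the inverse Simpson index, is the number of equally frequent segments that would give the same evenness. It was 4.97 (4.45 to 5.64) in WT plasma cells and 3.05 (2.92 to 3.18) in *Postn*-DTR plasma cells. In 584 cells of each, 49 segments were seen in WT and 33.1 were expected in *Postn*-DTR. B cells had effective numbers of 32.2 (30.1 to 34.8) and 18.8 (16.3 to 22.1), but the number of segments in 908 cells was close, 80.1 expected and 77 seen. With Igkv14-126 and Igkv8-16 set aside, the effective number was 13.7 (11.5 to 17.1) and 12.8 (11.1 to 14.9) in plasma cells and 38.7 (36.5 to 41.2) and 39.5 (35.9 to 44.0) in B cells. The intervals of the libraries then overlapped in both classes.

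The segments in use were spread over the locus in B cells and gathered in few places in plasma cells. Outside the leading pair, segments within 1000 kb of Igkj1 were dominant in 35.2% of WT and 39.2% of *Postn*-DTR B cells, but in 17.3% (12.7 to 22.8) and 15.5% (12.1 to 19.4) of plasma cells. Segments in the next 1000 kb were dominant in 21.2% and 18.8% of these B cells and in 37.7% and 34.7% of these plasma cells. Segments on the plus strand served 47.2% and 46.2% of these B cells and 39.8% (33.5 to 46.5) and 52.4% (47.4 to 57.3) of these plasma cells. Pseudogenes were almost never called, in 1 of 2606 plasma cells and 4 of 3522 B cells. The 5 listed members of the Igkv14 family and the 9 of the Igkv8 family owed most of their plasma cell shares to a single member each, at 36.3% and 36.2% for Igkv14 and 26.9% and 45.1% for Igkv8. The Igkv4 family, the largest with 31 listed members, served 7.19% and 4.70% of plasma cells and 12.2% and 10.1% of B cells.

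**Figure D2:**
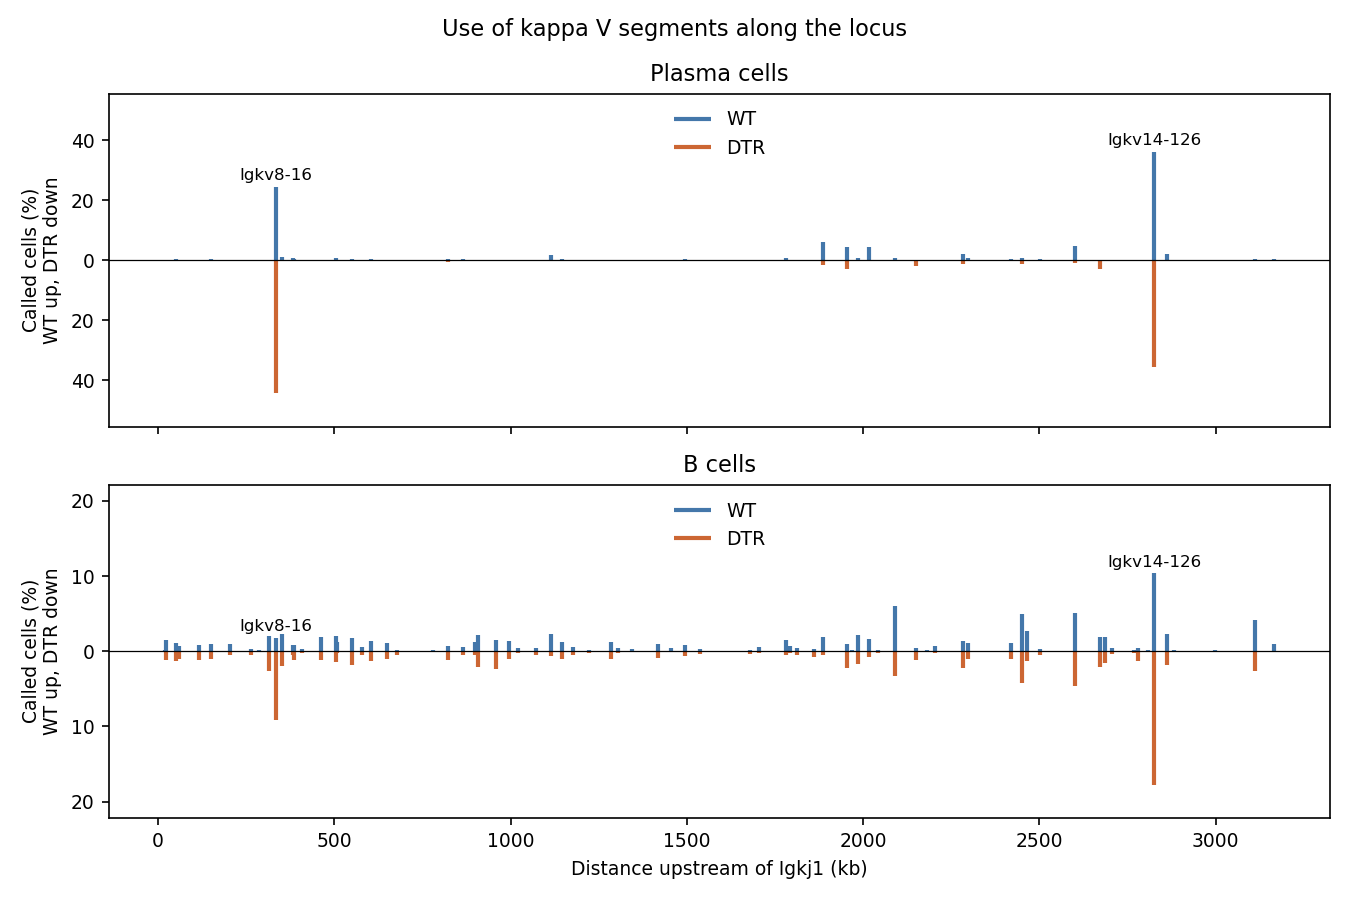
Share of called cells (y axis, percent, WT above and *Postn*-DTR below the line) by the distance of the dominant kappa V segment upstream of Igkj1 (x axis, kb), in plasma cells (top) and B cells (bottom). Plasma cells show 2 tall bars, Igkv8-16 at 335 kb and Igkv14-126 at 2826 kb, while B cells use segments along the whole locus.

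Levels over all cells use UMIs in place of calls. A level was the mean over cells of UMIs per 10000, compared after adding 0.02, for genes with 100 UMIs or more in all. In plasma cells 72 of 89 such kappa V rows differed more than 2-fold (80.9%), 37 higher (41.6%) and 35 lower (39.3%) in *Postn*-DTR, against 5.39% of all 9946 genes (2.06% higher and 3.33% lower). In B cells 31 of 83 did (37.3%), 18 higher (21.7%) and 13 lower (15.7%), against 3.49% of 10144 genes (1.87% higher and 1.62% lower). Among the rows matched by symbol alone it was 61 of 77 (79.2%, with 40.3% higher and 39% lower) and 23 of 70 (32.9%, with 18.6% higher and 14.3% lower). Of the heavy-chain V rows, 59 of 79 differed in plasma cells (74.7%, with 41.8% higher and 32.9% lower) and 29 of 82 in B cells (35.4%, with 23.2% higher and 12.2% lower). In B cells the split turned to 8 higher and 12 lower with Jchain limited to below 10 UMIs per 10000, and to 12 and 16 without cycling cells, where plasma cells had 42 higher and 30 lower. The minimum of 100 UMIs was summed over both libraries, so a kappa V row could pass it through 1 plasma cell. Igkv7-33, dominant in 1 WT plasma cell, held 3842 WT and 3 *Postn*-DTR UMIs in plasma cells, and Igkv12-40 held 0 and 443. Segments dominant in just 1 plasma cell numbered 19 among the 49 WT ones and 14 among the 52 from *Postn*-DTR. The comparison with all genes does not allow for this. With 1 library per group, the spread between clones and a difference between the groups cannot be told apart. The median over the kappa V rows was 0.25 on the log2 scale in plasma cells and -0.01 in B cells, beside 0.00 and -0.05 over all genes. Without cycling cells it was 1.13 and -0.33, beside 0.02 and -0.04 over all genes.

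The level of Igkv14-126 was 1359 UMIs per 10000 in WT plasma cells and 1323 in *Postn*-DTR plasma cells (log2 difference -0.04). That of Igkv8-16 was 470 and 560 (0.25), so its share of cells differed by more than its level. Igkv8-16 cells held fewer UMIs of their segment: a median of 5442 in WT and 2595 in *Postn*-DTR, against 12256 and 10074 in Igkv14-126 cells. Per UMI of Igkc, the kappa constant region, this was 3.65 and 2.71 against 11.8 and 13.3. Rows held almost wholly by a single library in plasma cells included Igkv10-94 (114 and 0.009 UMIs per 10000), Igkv3-10 (89.8 and 0.051), Igkv4-86 (0.113 and 18.5) and Igkv10-95 (0.491 and 34.5).

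Some heavy and kappa V segments came in nearly fixed pairs in plasma cells, while others had many partners. Igkv1-110 had 12 heavy partners in 24 *Postn*-DTR plasma cells, and Igkv1-117 had 7 in 27 WT plasma cells. A pair was read where both a heavy-chain and a kappa V segment were dominant, in 583 WT and 2015 *Postn*-DTR plasma cells and in 2274 and 801 B cells. Of WT plasma cells with Ighv11-2, 202 of 204 had Igkv14-126 (99.0%, 96.5 to 99.9), and of those from *Postn*-DTR 670 of 675 (99.3%, 98.3 to 99.8). Among plasma cells with other heavy segments Igkv14-126 was dominant in 2.37% and 3.73%. In B cells 212 of 230 (92.2%, 87.9 to 95.3) and 118 of 124 (95.2%, 89.8 to 98.2) of the Ighv11-2 cells had Igkv14-126, against 1.76% and 4.43% of the others. With background subtracted the shares were 93.7% and 95.2%, against 19 of 1900 and 14 of 652 of the others. The pair was thus kept in both classes and both libraries.

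The partner of Igkv8-16 was Ighv1-11. All 141 WT plasma cells with Igkv8-16 and a heavy call had Ighv1-11, and 894 of 896 from *Postn*-DTR did. Read from the heavy side, 141 of 160 Ighv1-11 plasma cells (88.1%, 82.1 to 92.7) and 894 of 987 (90.6%, 88.6 to 92.3) had Igkv8-16. In B cells the heavy side was looser, with 33 of 57 (57.9%, 44.1 to 70.9) and 75 of 150 (41.7 to 58.3%), or, with background subtracted, 32 of 51 (62.7%, 48.1 to 75.9) and 74 of 101 (73.3%, 63.5 to 81.6). Of the textbook pair Ighv12-3 with Igkv4-91, 25 of 26 WT and 55 of 67 *Postn*-DTR plasma cells with Ighv12-3 had Igkv4-91 (96.2% and 82.1%), and 13 of 36 and 10 of 21 B cells. Ighv7-1 did not come with Igkv7-33 in any of 10 WT and 19 *Postn*-DTR plasma cells or 33 and 15 B cells with Ighv7-1. Igkv7-33 was dominant in 1 cell of the plasma gate and none of the B gate. Instead Igkv15-103 was dominant in 6 of 10 and 16 of 19 Ighv7-1 plasma cells, and in 6 of 33 and 7 of 15 B cells.

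**Figure D3:**
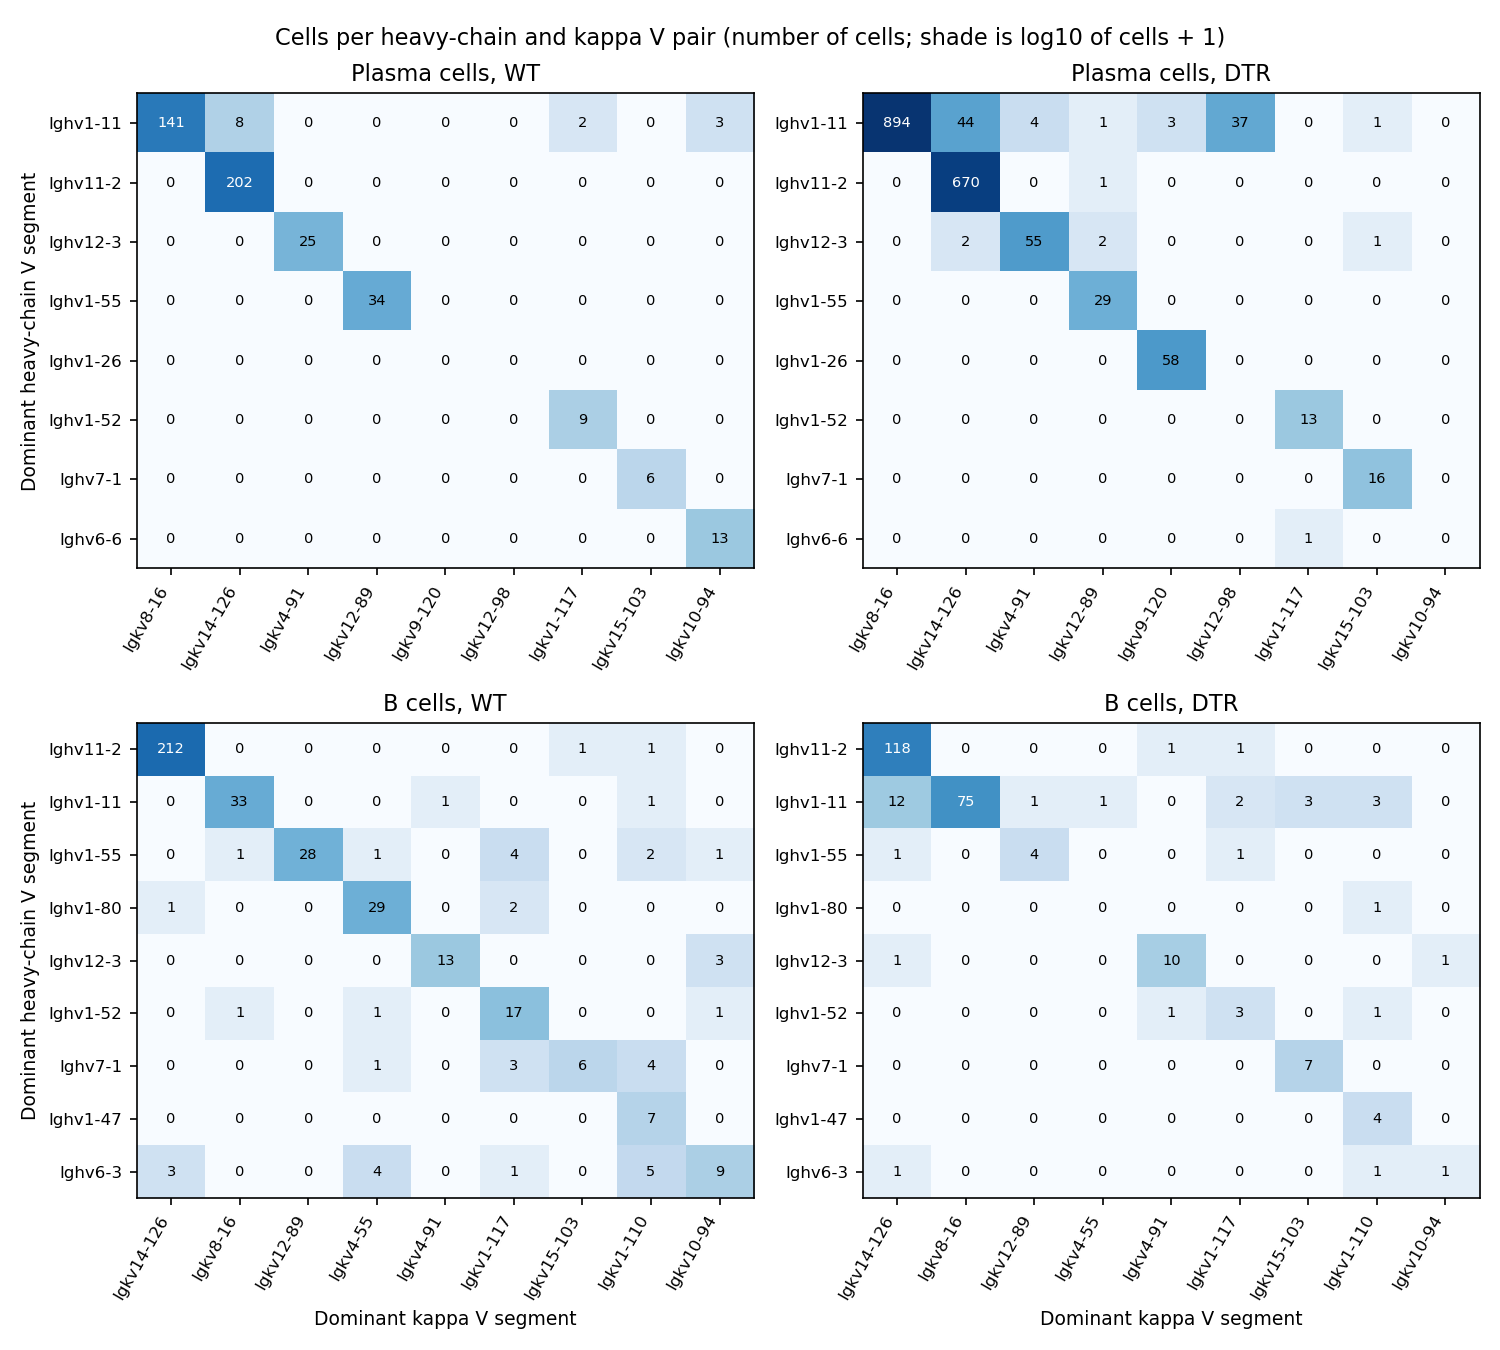
Number of cells with each combination of dominant heavy-chain V segment (rows) and kappa V segment (columns), for the segments of the 10 most frequent pairs of plasma cells (top) and B cells (bottom) in WT (left) and *Postn*-DTR (right); shade is log10 of the count plus 1. The plasma cell counts lie in a few cells of each grid, led by Ighv11-2 with Igkv14-126 (202 and 670) and Ighv1-11 with Igkv8-16 (141 and 894).

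For several of the other recurrent plasma cell pairs, the intervals of their share of all pairs did not overlap between the libraries. Ighv1-55 with Igkv12-89 was in 34 WT (5.83%, 4.07 to 8.05) and 29 *Postn*-DTR plasma cells (1.44%, 0.966 to 2.06) and in 28 and 4 B cells. Ighv1-26 with Igkv9-120 was in 0 WT and 58 *Postn*-DTR plasma cells (2.88%), out of 4 and 61 with Ighv1-26. Ighv6-6 with Igkv10-94 was in 13 (2.23%) and 0, out of 17 and 7 with Ighv6-6. Ighv1-52 with Igkv1-117 was in 9 (1.54%, 0.708 to 2.91) and 13 (0.645%, 0.344 to 1.10), shares whose intervals overlap, out of 10 and 13 with Ighv1-52, and in 17 of 41 and 3 of 13 B cells. The 12 WT plasma cells with Igkv17-127 all had Ighv1-82. In the B gate Ighv1-80 with Igkv4-55 was in 29 WT cells and 0 from *Postn*-DTR, and Ighv1-47 with Igkv1-110 in 7 and 4 cells. Ighv6-3 with Igkv10-94 was in 9 and 1 B cells.

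Counted as distinct pairs, WT plasma cells held 85 and *Postn*-DTR plasma cells 137, of which 16 occurred in both libraries (18.8% and 11.7% of the distinct pairs). These 16 covered 75.8% of the WT and 86.4% of the *Postn*-DTR plasma cells. B cells held 1301 and 491 distinct pairs with 212 in common (16.3% and 43.2%), covering 31.9% and 59.8% of the cells. These counts and percentages depend on the unequal numbers of cells with a pair, 583 and 2015 plasma cells and 2274 and 801 B cells. They were not brought to equal numbers. The effective number of pairs was 5.36 (4.76 to 6.14) and 3.22 (3.08 to 3.38) in plasma cells and 98.7 (81.1 to 126) and 31.0 (25.1 to 40.5) in B cells. Within a library, 48 pairs in WT and 52 in *Postn*-DTR were seen in both classes and covered 89.0% and 93.6% of the plasma cells but 20.3% and 36.8% of the B cells. Free RNA alone gave a dominant heavy-chain V segment in 5.45% of WT and 42.5% of *Postn*-DTR T cells. A full pair was read in 140 of 3008 and 122 of 478 T cells. The B cell values of this paragraph were not corrected for this background, and its part in them was not tested.

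Some plasma cells carried a second kappa V segment at a high level. With at least 10 UMIs and 20% of the kappa V UMIs asked of the second segment, it was found in 95 WT plasma cells (15.9%, 13.1 to 19.1), 202 from *Postn*-DTR (9.85%, 8.60 to 11.2), 382 WT B cells (13.1%) and 127 from *Postn*-DTR (12.2%). Such cells were deeper, at a median of 41110 against 28558 UMIs in WT plasma cells and 32767 against 23632 in *Postn*-DTR. Scrublet marked 0 of the 95 and 2 of the 202, but it can hardly mark a doublet of 2 like cells such as 2 plasma cells. The part of doublets in the counts was thus not tested. The number of cells that also held a further heavy-chain V segment is given beside each combination named in plasma cells.

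The combinations differed in this number. Igkv14-126 with Igkv8-16, the segments of the leading pairs, was in 8 WT and 37 *Postn*-DTR plasma cells. All 8 and 27 of the 37 also had a further heavy-chain V segment by the same thresholds, at a median depth of 55677 and 43306 UMIs. Igkv14-126 with Igkv10-95 was in 45 plasma cells and 19 B cells of *Postn*-DTR and in none of WT. Of these 45, 41 had Ighv11-2 and 1 had a further heavy segment, at a depth of 22072 UMIs, below that of all *Postn*-DTR plasma cells. The segments shared the UMIs at a median of 32.6% for Igkv10-95 and 67.1% for Igkv14-126.

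Igkv14-126 with Igkv3-10 was the WT counterpart, in 24 plasma cells and 31 B cells of WT and in none of *Postn*-DTR. Of the 24, 22 had Ighv11-2 and 2 a further heavy segment, and all 31 B cells had Ighv11-2 and none a further one. In the 24 plasma cells the kappa V UMIs were split at a median of 53.0% for Igkv14-126 and 45.9% for Igkv3-10. Further combinations also kept to a single library in plasma cells: Igkv14-126 with Igkv4-86 in 20 of *Postn*-DTR (3 with a further heavy segment), Igkv14-126 with Igkv1-88 in 11 of WT (0 with one) and Igkv8-16 with Igkv8-19 in 6 of WT (0 with one). Igkv8-16 with Igkv10-94 was likewise in 6 plasma cells of WT and 0 of *Postn*-DTR. Of the 25 WT plasma cells with dominant Igkv10-94, 4 also held Igkv8-16 at 10 UMIs and 5% or more of their kappa V UMIs. In sequence the partners were no near copies of Igkv14-126 (75% identity for Igkv10-95, 64.5% for Igkv3-10, 60.3% for Igkv4-86 and 61.1% for Igkv1-88, with shared runs of at most 19 bases).

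**Figure D4:**
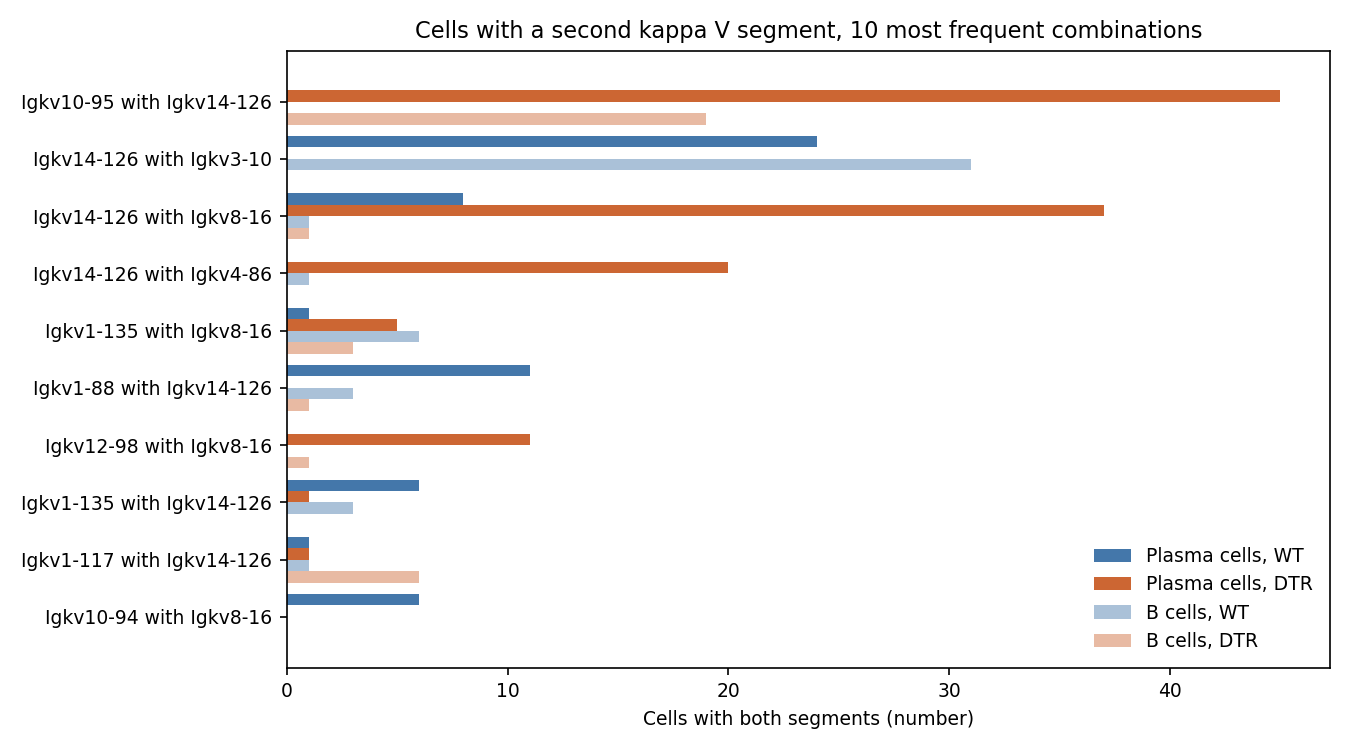
Number of cells (x axis) that held both kappa V segments named on the y axis, the second at 20% or more of the kappa V UMIs, for the 10 most frequent combinations in plasma cells (dark) and B cells (light) of WT (blue) and *Postn*-DTR (orange). Igkv10-95 with Igkv14-126 is seen only in *Postn*-DTR (45 and 19 cells) and Igkv14-126 with Igkv3-10 only in WT (24 and 31 cells).

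Igkv12-98 with Igkv8-16 was in 11 plasma cells of *Postn*-DTR at the 20% threshold, all with Ighv1-11 and 0 with a further heavy segment, and in none of WT. At a lower threshold the combination took in all *Postn*-DTR plasma cells with dominant Igkv12-98. Each of these 37 plasma cells with dominant Igkv12-98 had Ighv1-11 as its heavy segment and also held Igkv8-16 at 10 UMIs and 5% or more of its kappa V UMIs (37 of 37, 90.5 to 100%), with a median of 3011 Igkv8-16 UMIs or 19.2%. Of the 10 *Postn*-DTR B cells with dominant Igkv12-98, 2 held Igkv8-16 at this lower threshold. Whatever their heavy segment, 4 of 63 *Postn*-DTR plasma cells with dominant Igkv9-120 did so. With dominant Igkv12-89 it was 1 of 34 and with dominant Igkv4-91 6 of 61, and the median was 1 to 2 Igkv8-16 UMIs. Among all 996 *Postn*-DTR plasma cells with Ighv1-11, 39 held Igkv12-98 at that threshold with at least 1257 UMIs, and the highest count in the others was 69. In the 166 WT cells with Ighv1-11 the highest count was 1. The 37 cells were counted under Igkv12-98 in the shares above, although they also held Igkv8-16. Igkv1-135 was a further companion of Igkv8-16, at the 20% threshold in 1 WT and 5 *Postn*-DTR plasma cells (1 and 0 with a further heavy segment) and at the 5% threshold in 22 of 142 WT (15.5%, 9.97 to 22.5) and 59 of 898 *Postn*-DTR (6.57%, 5.04 to 8.39) plasma cells with dominant Igkv8-16.

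**Figure D5:**
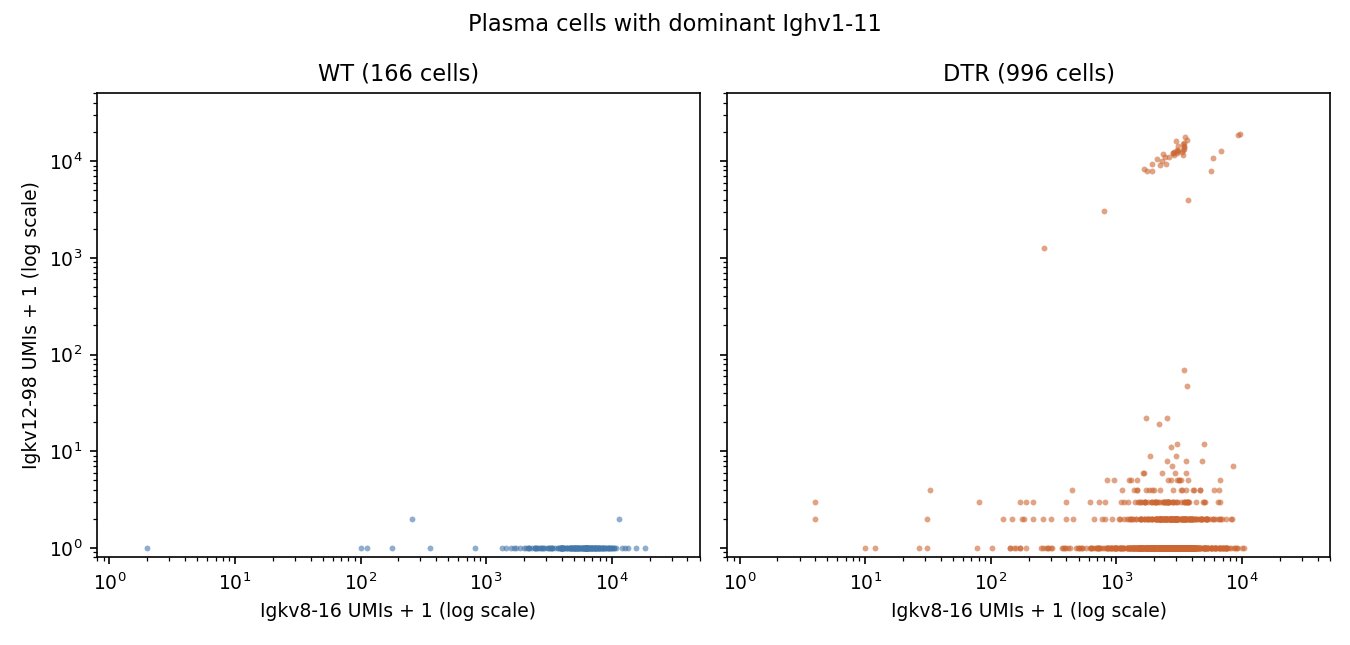
Igkv8-16 UMIs (x axis) against Igkv12-98 UMIs (y axis), each plus 1 on log axes, in plasma cells with dominant Ighv1-11, 1 point per cell, in WT (166 cells) and *Postn*-DTR (996 cells). In *Postn*-DTR 39 cells lie apart with at least 1257 Igkv12-98 UMIs, and all of them also hold at least 266 Igkv8-16 UMIs.

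Segments differed in the heavy-chain class of their plasma cells, read as the constant region with most UMIs. Igkv14-126 cells were nearly all IgM (208 of 211 WT and 713 of 723 *Postn*-DTR cells), as were all cells with Igkv4-91 (25 and 61), Igkv12-89 (36 and 34) and Igkv15-103 (11 and 27). Igkv1-117 cells were IgM in 25 of 27 and 20 of 20. Igkv8-16 cells were IgM in 85 of 142 WT cells (59.9%) and 752 of 898 *Postn*-DTR cells (83.7%). The rest were mostly IgG3, 57 (40.1%, 32.0 to 48.7) and 137 (15.3%, 13.0 to 17.8). Of all 62 WT plasma cells with a call and IgG3, 57 thus had Igkv8-16, and of the 149 from *Postn*-DTR 137 did. The Igkv9-120 cells of *Postn*-DTR were IgG1 in 59 of 63, out of 60 IgG1 cells in all. The 19 IgA plasma cells of WT had neither leading segment. In the B gate Igkv8-16 cells were also IgG3 in part (15 of 45 WT and 30 of 83 *Postn*-DTR cells).

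Cycling cells, with a Mki67 or Top2a UMI, made up 61 of 142 WT and 439 of 898 *Postn*-DTR plasma cells with Igkv8-16, and 79 of 211 and 260 of 723 of those with Igkv14-126. Without them the Igkv8-16 share in *Postn*-DTR plasma cells was 40.3% and that in WT 24.0%.

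Of the other light-chain genes, Igkc was nearly level in plasma cells while Iglv2 was higher in *Postn*-DTR. Igkc stood at 395 and 376 UMIs per 10000 (log2 difference -0.07). The lambda V segment Iglv1 stood at 73.7 and 58.5 (-0.33) and Iglv2 at 6.61 and 15.4 (1.22). The lambda constant region Iglc2 stood at 23.7 and 15.3 (-0.63), Iglc3 at 7.89 and 6.20 (-0.35) and Iglc1 at 13.9 and 12.9 (-0.10). In B cells the mean level of Igkc stood at 18.8 and 43.5 (1.21), whereas its median count was 9 and 7 UMIs, lower in *Postn*-DTR. Cells whose lambda V UMIs exceeded their kappa V UMIs were 10 of 596 (1.68%, 0.807 to 3.06) and 28 of 2050 (1.37%, 0.909 to 1.97) plasma cells, and 272 of 2916 (9.33%, 8.30 to 10.4) and 70 of 1039 (6.74%, 5.29 to 8.44) B cells. The constant regions gave another answer in B cells: Iglc exceeded Igkc in 1761 WT and 567 *Postn*-DTR B cells, of which 1556 and 487 had a dominant kappa V segment. The median B cell had 9 and 7 Igkc UMIs against 45 and 41 kappa V UMIs. Rag1 and Dntt, which act in V(D)J joining, were at or near 0 (at most 16 UMIs in a class and library), as was Igll1 of the surrogate light chain. Vpreb3 was at 2.24 and 2.70 UMIs per 10000 in B cells and 0.068 and 0.062 in plasma cells. The Igkj segments, Vpreb1, Vpreb2 and Rag2 were not analysed here.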

How the data were processed

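Omental cells of 1 WT and 1 *Postn*-DTR library, each from 3 pooled mice, were analysed. The authors counted UMIs, scaled each cell to 10000, took the natural log (ln) of 1 plus this value and deposited it rounded to 3 decimals. Per the labels the 5′ reagent kit was used and the submitters' processing notes name Cell Ranger 6.0.0 and mm10, whereas the study's methods name a 3′ kit and another Cell Ranger version; kappa V segments gave more UMIs than Igkc. Whole UMIs were recovered from the smallest step in each cell (whole within 0.1 UMI for 99.95% and 99.89% of values). The files hold no columns of other samples.

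The study's own limits (200 to 7500 genes, 25% mitochondrial UMIs) left 80152164 and 81011219 UMIs. T cells for the background had Cd3e, no Ms4a1 or Cd79a, and a Jchain value under 3.93. Gene names and the sequences came from GENCODE M21 (GRCm38), in which 19950 of the 19960 identifiers were found. Scrublet was run in scanpy 1.11.5, and its fixed score of 0.3 was chosen after the automatic threshold had marked only 2 WT cells. The automatic threshold had marked 103 *Postn*-DTR cells, and the fixed score marked 88 WT and 69 *Postn*-DTR cells. Sequence identities (global alignment) were computed with biopython 1.88. The scripts, under Python 3.11.15 with scipy 1.17.1, were tested on simulated data. The design had 1 library per group, hence no test. Intervals are exact Clopper-Pearson for shares, Katz log for ratios and a normal approximation for the Simpson index, at 95%, and cover counting error only. They take cells as independent draws. A count of 0 is given the limit of 3 counts. PCR copies are removed by UMIs.

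Named segments are the 10 dominant in most cells of each class, the 5 highest and 5 lowest ratios among segments in at least 20 cells, the textbook pairs, the 10 most frequent heavy and kappa pairs of each class, and a list of other light-chain genes. Igkv10-95, Igkv3-10, Igkv4-86, Igkv1-88 and Igkv8-19 were added after their values were seen. The members and lists were chosen with earlier results of these data known. Alternatives changed the cell filter, the dominance threshold, the UMI minimum, depth, doublets, the Jchain gate, cycling cells, the pseudocount and the scaling.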

Additional observations from a re-analysis of the deposited data

How the results depend on the processing

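Of 214 values recomputed under alternatives, 172 stayed within their counting error or within 1.5 times of the count and 42 moved. The ratio of Igkv14-126 shares moved under none (0.986 to 1.04 in plasma cells, 1.54 to 1.87 in B cells). The share of cells with a dominant segment was, at 80% dominance, 83.1% and 88.8% in WT and *Postn*-DTR plasma cells and 64.9% and 48.6% in B cells. By symbol-matched rows alone, chosen after seeing the data, it was 81.9% and 83.2% in plasma cells and 78.2% and 81.6% in B cells. In B cells it was 82.9% and 78.8% with 10 UMIs required, 94.4% and 90.5% with 1 UMI, and 75.9% and 73.2% after thinning each cell to 1000 UMIs. Without cells with more Iglc than Igkc it was 99.2% in *Postn*-DTR plasma cells and 91.6% in WT B cells. The effective number of segments was 7.03 and 2.42 in plasma cells and 36.4 in WT B cells by symbol, 2.90 in plasma cells and 14.4 in B cells of *Postn*-DTR at 80% dominance, 29.0 in WT B cells with 1 UMI, and 14.6 in *Postn*-DTR B cells with a Jchain gate of 100 UMIs per 10000. The segment dominant in most cells of the libraries together, Igkv8-16 in plasma cells and Igkv14-126 in B cells, held 15.8% and 20.3% of plasma cell and 13.9% and 40.1% of B cell kappa V UMIs (by UMIs Igkv14-126 led plasma cells too, at 43.0% and 51.9%). As a share of cells it was 34.4% and 63.8% in plasma cells by symbol, and in *Postn*-DTR plasma cells 47.9% at 80% dominance, 41.7% with the Jchain gate of 100 and 40.3% without cycling cells; it was 12.3% in WT B cells with 1 UMI. Of Ighv11-2 cells, 100% and 100% of plasma cells and 98.3% and 98.6% of B cells had Igkv14-126 at 80% dominance, 84.3% of WT B cells with 1 UMI, 95.8% of them after thinning and 98.2% of *Postn*-DTR B cells with 10 UMIs. The number of kappa V rows past 2-fold in B cells was 16 with a pseudocount of 0.2 and 20 with Jchain below 10 UMIs per 10000, also chosen after seeing the data. Where no construction of the alternative shows it, the cause was not tested. No paired analysis was possible because there is 1 library per group. Depth limits the B cell calls, which rest on a median of 45 and 41 kappa V UMIs against 2 and 6 in T cells.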
